A study of Mus musculus with 36 samples.

Results

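The transcripts described here are those of 7 CXC chemokines, Cxcl1, Cxcl2, Cxcl3, Cxcl9, Cxcl10, Cxcl11 and Cxcl16, chosen by name from the 54232 genes listed in the count files. RNA sequencing measured them in 36 libraries from bone marrow-derived macrophages of the mouse, obtained by culturing marrow for 5 days in 20 ng/mL of macrophage colony-stimulating factor (MCSF). The series text gives the wild-type strain as C65BL6, and the labels name 2 genotypes, WT and NOS1 KO, the latter a knockout of neuronal nitric oxide synthase. In 6 libraries, numbered here as replicate 6 of each group, the genotype reads BMDM WT or BMDM NOS1 KO, and these were grouped with the others. Each genotype label has 6 untreated control libraries, 6 from cells exposed for 2 h to lipopolysaccharide (LPS, from the outer membrane of Gram-negative bacteria) at 100 ng/mL and 6 from cells given the same dose for 8 h. The labels give no age, sex, animal or culture for a library, so the p-values rest on spread among libraries that could be technical replicates.

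CXC chemokines are small secreted proteins that direct leukocyte migration by engaging receptors on the arriving cells. CXCL1, CXCL2 and CXCL3 bind CXCR2 and recruit neutrophils, and in macrophages their genes are classical early targets of NF-kB downstream of the LPS receptor TLR4. CXCL9, CXCL10 and CXCL11 bind CXCR3 on activated T cells and natural killer cells, and their genes are induced by interferons, with CXCL10 also responding directly to interferon regulatory factors and NF-kB. CXCL16 is made as a membrane-bound protein with a chemokine domain on a stalk, binds CXCR6, acts as a scavenger receptor and is released from the surface by ADAM10 and ADAM17.

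Library totals ran from 8953489 to 18482551 counts (median 12761434), and levels are given as CPM, read counts scaled to a common library size. The 8 macrophage markers summed to between 12600 and 22400 CPM in every library, so the labelled cell type had its defining transcripts. The targeted gene went against the genotype labels: Nos1 had between 10 and 83 counts in the libraries labelled NOS1 KO and between 0 and 8 in those labelled WT. The groups are therefore called KO-labelled and WT-labelled throughout, and each direction between them rests on the labels. Within groups the libraries separated along the first principal component of group-centred values, which held 34.6% of the variance, into 2 sets of 18 with 3 of each in every group. Set A holds replicates 1, 2 and 6 and set B replicates 3, 4 and 5, where replicate numbers follow accession order and only name a library. The labels name no such sets, which were drawn from the same counts that are tested here. Of all 36 libraries, 4 WT-labelled ones (replicates 5 and 6 at 2 h and at 8 h) had more than 100 CPM of skeletal muscle transcripts, up to 3700 CPM in replicate 5 at 8 h.

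Of the 7 genes, 6 lie on chromosome 5 and Cxcl16 lies on chromosome 11 (mm10; GENCODE release M21). Cxcl3 (90786103 to 90789600), Cxcl1 (90891241 to 90893115) and Cxcl2 (90903871 to 90905938) are on the plus strand. Cxcl9 (92321347 to 92328079), Cxcl10 (92346638 to 92348889) and Cxcl11 (92359544 to 92365485) are on the minus strand of the same chromosome, 1579 kb from the first to the last base of the 6 genes. Cxcl16 runs from 70453983 to 70459984 on the minus strand. Cxcl11 is annotated as a polymorphic pseudogene, since some strains carry an open reading frame and the reference does not. RefSeq promoter windows (GRCm38.p6) were matched for 5 of the 7 genes, with no entry for Cxcl11 or Cxcl16.

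The promoters of Cxcl1, Cxcl2 and Cxcl3 are shown because these 3 genes share a motif at nearly the same place. Each line gives bases -110 to -31 before the RefSeq start, plus strand of chromosome 5, 5′ to 3′, with the shared NF-kB match in capitals.
Cxcl1, chr5:90891135-90891214: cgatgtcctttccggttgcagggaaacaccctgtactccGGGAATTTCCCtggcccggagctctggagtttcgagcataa
Cxcl2, chr5:90903789-90903868: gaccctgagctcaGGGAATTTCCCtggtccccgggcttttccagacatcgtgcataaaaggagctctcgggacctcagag
Cxcl3, chr5:90785991-90786070: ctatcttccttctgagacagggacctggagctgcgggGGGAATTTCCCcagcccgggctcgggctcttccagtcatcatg
The 11 bases GGGAATTTCCC match the NF-kB consensus on both strands, as 2 overlapping matches. They begin 71 bases before the start of Cxcl1, 97 before that of Cxcl2 and 73 before that of Cxcl3. This exact run was chosen because these 3 genes share it. Its presence in 3 of the 5 windows of the genes described here was fixed by that choice. On either strand it was present in 14 of 32841 windows of 250 bases upstream of RefSeq starts (0.0426%), these 3 included.

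The Cxcl10 promoter is shown whole because it held both kinds of motif. It lies on the minus strand of chromosome 5 and is written 5′ to 3′ towards the start, with an ISRE match and then 2 NF-kB matches in capitals.
Cxcl10, chr5:92348890-92349139: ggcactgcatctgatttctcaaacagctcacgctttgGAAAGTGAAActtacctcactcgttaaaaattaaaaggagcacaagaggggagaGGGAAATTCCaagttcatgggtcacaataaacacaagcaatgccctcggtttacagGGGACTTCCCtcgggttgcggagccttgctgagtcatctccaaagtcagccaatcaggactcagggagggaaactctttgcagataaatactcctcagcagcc
The interferon-stimulated response element (ISRE), searched on both strands as GAAA, any 2 bases and GAAA, began 213 bases before the start, and the NF-kB matches began 159 and 103 bases before it. Over all windows, an NF-kB match was present in 3.9%, an ISRE match in 2.98% and a match to the interferon-gamma activated site (GAS, TTCNNNGAA) in 7.02%. The Cxcl9 window held no match to these 3 patterns, and none of the 5 windows held a GAS match. A match describes letters in the window and was not tested for binding.

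All 7 transcripts were rare to moderately abundant before LPS, and rose at both times under both genotype labels. They all passed the filter on low counts, but Cxcl1, Cxcl3, Cxcl9 and Cxcl11 could pass it only through the LPS groups, so the direction of their change was fixed by that filter. After 2 h, 7 of 7 were called higher (adjusted p under 0.05) in WT-labelled libraries, where 20.3% of the 12957 genes tested were called higher, and 7 of 7 in KO-labelled libraries, where 18.9% were. After 8 h the counts were again 7 of 7 in each, beside 34.2% and 34.9% of all genes. The median log2 change over the 7 was 7.47 (WT label) and 7.33 (KO label) at 2 h and 9.41 and 6.69 at 8 h, while the median over all genes lay between -0.06 and -0.01. The 8 h medians belong to different genes, Cxcl11 (WT label) and Cxcl3 (KO label), so their gap is not the difference of any transcript. At 8 h Cxcl11 rose by 9.41 (WT label) and 8.46 (KO label), and Cxcl3 by 10.4 and 6.69. The 2 times share their control libraries. The share of all genes whose treatments have separate ranges was not counted, so the overlaps given below only describe the 7. In bulk RNA, more transcript per cell and more cells with the transcript cannot be told apart.

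**Figure D1:**
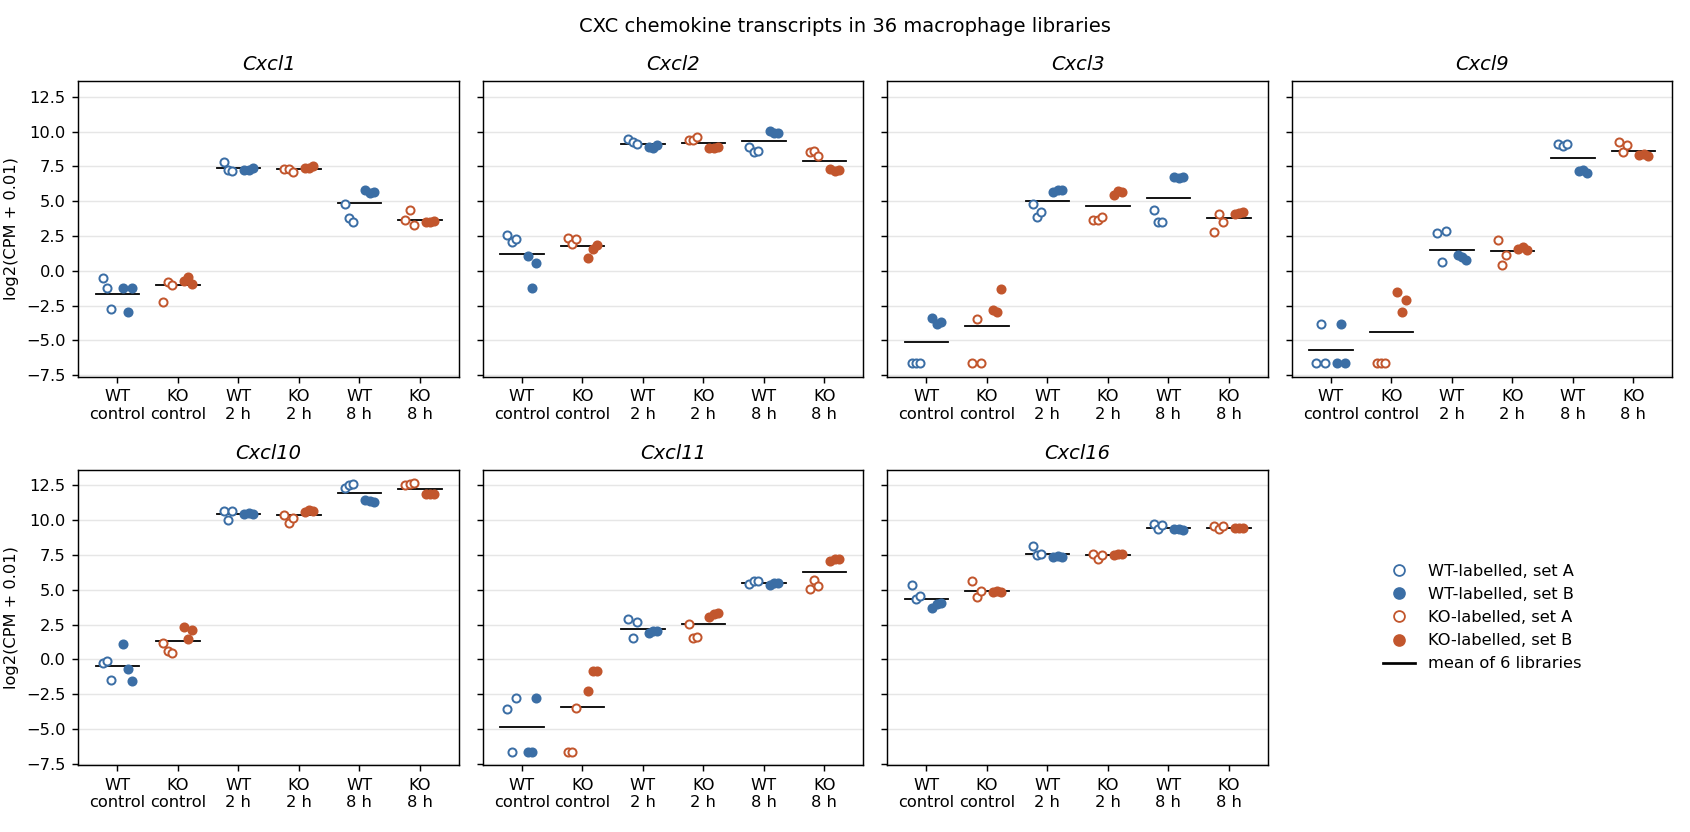
Level of each transcript, as log2(CPM + 0.01), in each of the 36 libraries by genotype label and treatment; open points are set A, filled points set B and lines the mean of 6 libraries. Every LPS library lies above every control library, in a direction that the filter on low counts fixed for Cxcl1, Cxcl3, Cxcl9 and Cxcl11. Cxcl9 stays low at 2 h, and at 8 h the filled points of every transcript separate by genotype label, those of Cxcl16 narrowly. The share of all genes that separate in these ways was not counted.

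Cxcl1 was the CXCR2 ligand that was called lower at 8 h than at 2 h under both labels. In WT-labelled controls it ranged from 0.12 to 0.677 CPM (median 0.413), at 2 h from 145 to 230 (median 152) and at 8 h from 11.3 to 54.7 (median 38.1). KO-labelled controls gave 0.205 to 0.727 CPM (median 0.54), 2 h libraries 135 to 180 (median 166) and 8 h libraries 9.95 to 21 (median 11.8). The 3 treatments did not overlap under either label, with 2 h always highest. The log2 change at 2 h was 8.82 ± 0.39 (SE, n = 6 against 6) in WT-labelled and 8.26 ± 0.38 in KO-labelled libraries (edgeR adjusted p = 2.42e-19 and 5.28e-19). At 8 h it was 6.56 ± 0.39 and 4.63 ± 0.37. The filter on low counts had fixed the direction of both rises, so the p-values at 2 h are no evidence for that direction.

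Cxcl2 was the most abundant of these 3 ligands per kilobase of exon in every group. WT-labelled controls ranged from 0.42 to 5.94 CPM (median 3.11), 2 h libraries from 463 to 716 (median 549) and 8 h libraries from 364.6 to 1030 (median 712). KO-labelled controls ranged from 1.88 to 5.12 CPM (median 3.66), 2 h libraries from 461 to 766 (median 584) and 8 h libraries from 146 to 399 (median 235). The 2 h and 8 h values overlapped in WT-labelled libraries, whereas in KO-labelled libraries every 8 h value was below every 2 h value. Log2 changes from control were 7.47 ± 0.44 and 7.78 ± 0.45 in WT-labelled and 7.33 ± 0.44 and 6.12 ± 0.42 in KO-labelled libraries, at 2 h and 8 h. The WT-labelled response differed between the sets, by 1.59 ± 0.32 at 2 h (7.0 in set A, 8.59 in set B, adjusted p = 0.00235) and by 3.18 ± 0.31 at 8 h (6.39 and 9.57, adjusted p = 1.56e-08), where 6.27% and 17.2% of all genes differed. At 2 h this gap lay in the controls, with means of 4.99 ± 0.922 CPM in set A and 1.34 ± 0.86 in set B (SD, n = 3). The 2 h level itself was lower in set B (489 against 633 CPM), and the 8 h level was higher (968 against 415 CPM).

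Cxcl3 was nearly absent from controls, with 3 counts in all 6 WT-labelled and 12 in all 6 KO-labelled control libraries. It then ranged from 14.2 to 55.7 CPM (median 39.2) at 2 h and from 11.2 to 109 CPM (median 59.9) at 8 h in WT-labelled libraries. In KO-labelled libraries it ranged from 12.5 to 54.2 CPM (median 28.8) at 2 h and from 6.75 to 18.8 CPM (median 17.2) at 8 h. The low control counts leave the WT-labelled rise imprecise: the log2 ratio of summed CPM was 10.17 at 2 h with a 95% counting interval of 8.62 to 12.45, and 10.86 at 8 h (9.31 to 13.14), where intervals cover counting error only. In KO-labelled libraries the fitted changes were 7.76 ± 0.80 and 6.69 ± 0.81. Set B stood above set A at 2 h under both labels, with means of 53.7 ± 3.04 and 20.4 ± 7.20 CPM (SD, n = 3) in WT-labelled libraries. Of the 50-base words in Cxcl2 transcripts 5.84% are also in Cxcl3, so a small part of the reads of either could be assigned to both.

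The CXCR3 ligands followed a later course, in which Cxcl10 led and Cxcl9 came last. Cxcl10 ranged from 0.337 to 2.12 CPM (median 0.713) in WT-labelled controls, from 1040 to 1650 (median 1430) at 2 h and from 2600 to 6310 (median 3980) at 8 h. KO-labelled controls ranged from 1.35 to 5.02 CPM (median 2.52), 2 h libraries from 915 to 1730 (median 1420) and 8 h libraries from 3730 to 6500 (median 4970). No 2 treatments overlapped under either label. Log2 changes were 10.73 ± 0.43 and 12.31 ± 0.45 in WT-labelled and 8.87 ± 0.38 and 10.74 ± 0.41 in KO-labelled libraries, at 2 h and 8 h. In KO-labelled libraries the 8 h change was smaller in set B (9.87) than in set A (11.81), a difference of -1.94 ± 0.37 (adjusted p = 0.000223, beside 22.8% of all genes).

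Cxcl9 rose at both times, to a low level at 2 h and a much higher one at 8 h. WT-labelled controls held 2 counts in all and KO-labelled controls 11. At 2 h it ranged from 1.52 to 7.41 CPM (median 2.08) in WT-labelled and from 1.35 to 4.53 (median 2.88) in KO-labelled libraries, and at 8 h from 129 to 558 (median 325) and from 298 to 613 (median 358). The log2 ratio of summed CPM in WT-labelled libraries was 7.25 at 2 h (95% counting interval 5.38 to 10.30) and 13.79 at 8 h (11.94 to 16.84). In KO-labelled libraries the fitted changes were 4.42 ± 0.75 and 11.58 ± 0.63.

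Per kilobase Cxcl11 was the least abundant CXCR3 ligand at 8 h, and it rose at both times. Its controls summed to 5 counts (WT label) and 23 counts (KO label). It ranged from 2.94 to 7.54 CPM (median 4.18) at 2 h and from 41.7 to 49.5 (median 45) at 8 h in WT-labelled libraries, with the narrowest 8 h range of the 7 relative to its mean. In KO-labelled libraries it ranged from 2.91 to 10.1 CPM (median 7.07) at 2 h and from 34.2 to 149 (median 93.9) at 8 h. Log2 changes were 6.19 ± 0.70 and 9.41 ± 0.63 in WT-labelled and 4.66 ± 0.54 and 8.46 ± 0.53 in KO-labelled libraries. The gene overlaps Gm2673 on the opposite strand by 1582 bases and 40.4% of its 50-base words are shared with other genes. Gm2673 was listed at 0 in every group, and the strand setting is not given in the sources used here, so the count of Cxcl11 is uncertain to that extent. Art3 spans Cxcl10 and Cxcl11 on the other strand, and its highest count was 43.

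Per kilobase Cxcl16 was the most abundant of the 7 in controls, and its rise was the smallest at 2 h. It ranged from 13 to 41.7 CPM (median 18.5) in WT-labelled controls, from 163 to 290 (median 175) at 2 h and from 624 to 836 (median 676) at 8 h. KO-labelled controls ranged from 22 to 50.5 CPM (median 29), 2 h libraries from 147 to 190 (median 184) and 8 h libraries from 652 to 787 (median 702). Log2 changes were 3.15 ± 0.20 and 5.02 ± 0.22 in WT-labelled and 2.51 ± 0.20 and 4.50 ± 0.22 in KO-labelled libraries. Zmynd15, which overlaps Cxcl16 by 552 bases on the opposite strand, went from a mean of 1.36 CPM in WT-labelled controls to 40.7 CPM at 8 h, so reads of the overlap could have been shared.

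**Figure D2:**
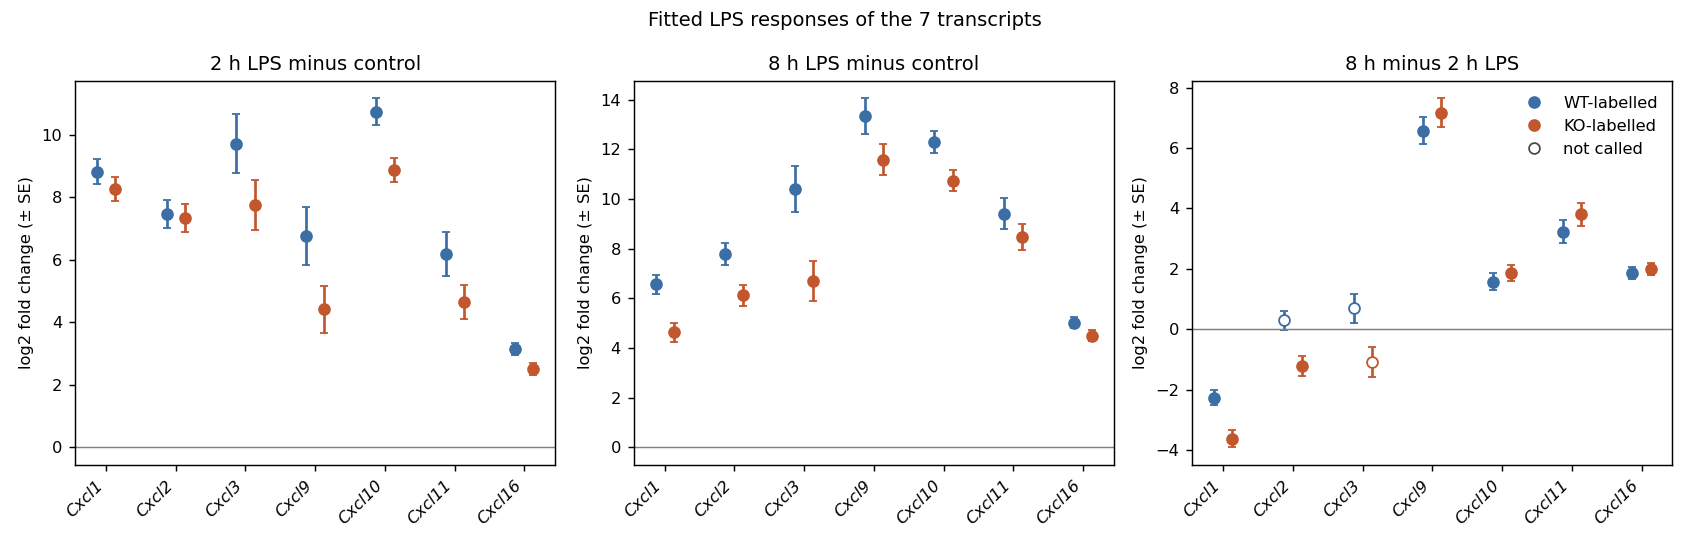
Fitted log2 fold change (± SE) of each transcript for 2 h LPS against control, 8 h LPS against control and 8 h against 2 h LPS, in WT-labelled and KO-labelled libraries; open points were not called at an adjusted p of 0.05. All changes from control are positive, and between 2 h and 8 h Cxcl1 fell while Cxcl9, Cxcl10, Cxcl11 and Cxcl16 rose.

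Between 2 h and 8 h Cxcl1 fell, and Cxcl9, Cxcl10, Cxcl11 and Cxcl16 rose, under both labels. In WT-labelled libraries 4 of 7 rose (30% of all genes did) and 1 fell (32.7% of all genes did), and in KO-labelled libraries 4 rose (31.5%) and 2 fell (33.7%). Cxcl9 rose the most, by 6.57 ± 0.45 on the log2 scale in WT-labelled and 7.17 ± 0.47 in KO-labelled libraries. Cxcl11 rose by 3.23 ± 0.38 and 3.8 ± 0.38, Cxcl16 by 1.87 ± 0.19 and 2.00 ± 0.19, and Cxcl10 by 1.58 ± 0.27 and 1.87 ± 0.27. Cxcl1 fell by 2.26 ± 0.26 (adjusted p = 2.3e-09) and by 3.63 ± 0.28 (adjusted p = 1.81e-13).

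Cxcl2 and Cxcl3 held their 2 h level in some libraries and lost it in others. Cxcl2 fell by 1.22 ± 0.33 in KO-labelled libraries (adjusted p = 0.00162), and its change in WT-labelled libraries was 0.30 ± 0.32 (adjusted p = 0.43). In a fit with a mean for each group in each set, chosen after the data were seen, WT-labelled Cxcl2 fell by 0.61 ± 0.14 from 2 h to 8 h in set A (63.4% of all genes called) and rose by 0.98 ± 0.14 in set B (63.7%). The difference was 1.59 ± 0.20 (adjusted p = 1.64e-06), and 15.9% of all genes differed between the sets in this contrast. Cxcl3 was not called in either genotype label over all 6 libraries (0.69 ± 0.47 and -1.08 ± 0.49, adjusted p = 0.207 and 0.0528). In set B it rose by 0.96 ± 0.21 in WT-labelled and fell by 1.47 ± 0.23 in KO-labelled libraries, and in set A neither change was called (-0.48 ± 0.24 and -0.15 ± 0.25). In KO-labelled libraries this contrast called 64.5% (set A) and 65.7% (set B) of all genes, and for 20.5% the sets differed, Cxcl3 among them (-1.32, adjusted p = 0.00552). Cxcl1 also fell less in set B than in set A in WT-labelled libraries (-1.63 and -3.24, difference 1.61 ± 0.31, adjusted p = 0.000601).

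Per kilobase of annotated exon, Cxcl10 was the highest of the 7 after LPS at both times. At 2 h it reached 630 ± 96.1 CPM per kb (SD, n = 6) in WT-labelled and 613 ± 139 in KO-labelled libraries, rank 50 of 12951 genes with a length. It was followed by Cxcl2 at 271 ± 46.5 and 286 ± 65.6, and the ranges of these 2 genes did not overlap. Cxcl1 (88.4 ± 17.3 CPM per kb) and Cxcl16 (64.3 ± 16.0) overlapped in WT-labelled libraries, as did Cxcl11 and Cxcl9 at the bottom (1.28 ± 0.471 and 1.18 ± 0.881).

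At 8 h Cxcl10 stood at 1890 ± 779 and 2240 ± 610 CPM per kb, rank 22 under both labels. In WT-labelled libraries Cxcl2 (334 ± 148) and Cxcl16 (236 ± 27.3) came next with overlapping ranges. Cxcl9 (112 ± 71.4) had the next mean, and its highest value (185) lay above the lowest of Cxcl2 (176) and below that of Cxcl16 (206). Cxcl1 (18.3 ± 10.2), Cxcl3 (17.0 ± 14.2) and Cxcl11 (12 ± 0.828) could not be ordered beyond their spread. In KO-labelled libraries Cxcl16 (236 ± 16.2) stood above Cxcl9 (136 ± 41.7) and Cxcl2 (123 ± 56.3), which overlapped, followed by Cxcl11 (24.6 ± 15.1), Cxcl1 (6.98 ± 2.13) and Cxcl3 (4.24 ± 1.34), where neighbours in this order again overlapped. Before LPS Cxcl16 was highest, with means of 7.26 ± 3.43 and 10.4 ± 3.24 CPM per kb, and no control library of another member reached its lowest value of 4.3.

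The comparison of the genotype labels asks whether the chemokine response differs without NOS1, with the reservation about the labels given above. Over all 6 libraries a group, 2 of the 21 tests of the 7 transcripts at the 3 treatments were called. In controls Cxcl10 was 1.82 ± 0.39 higher on the log2 scale in KO-labelled libraries (adjusted p = 0.0472), the sole call among the 7, where 0.116% of all genes were called higher. It lost the call when any of 23 of the 36 libraries was left out (adjusted p from 0.00994 to 0.257 over the 36 fits, log2 change from 1.60 to 2.26). At 2 h 0 of 7 were called by edgeR, beside 0.0232% of all genes, and 0 had an unadjusted p under 0.05 or were called by the DESeq2 Wald test or limma-voom. Their log2 differences ran from -0.31 (Cxcl9) to 0.45 (Cxcl11). At 8 h Cxcl1 was lower by -1.40 ± 0.26 (adjusted p = 0.0128), the sole call among the 7, where 0.0463% of all genes were called lower. Cxcl2 (-1.44 ± 0.33, adjusted p = 0.0548) and Cxcl3 (-2.01 ± 0.50, adjusted p = 0.0736) missed the threshold, as did Cxcl11 (1.03 ± 0.34, adjusted p = 0.226). The Cxcl1 call was lost without WT-labelled replicate 5 at 8 h (adjusted p = 0.0683) and without KO-labelled replicates 3 (0.0579) or 4 (0.0727) at 8 h. With the library set as a term, Cxcl10 in controls missed the threshold (1.85 ± 0.42, adjusted p = 0.0618), and at 8 h Cxcl1 (-1.33 ± 0.25, 0.00886), Cxcl2 (-1.63 ± 0.31, 0.00852) and Cxcl3 (-1.54 ± 0.27, 0.00351) were called.

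These differences at 8 h lay in set B. There Cxcl1 was at 47.8 to 54.7 CPM in the 3 WT-labelled and 11.3 to 12.1 in the 3 KO-labelled libraries, Cxcl2 at 937 to 1030 and 146 to 160, and Cxcl3 at 99.5 to 109 and 17.2 to 18.8. Cxcl9 went the other way, from 129 to 152 CPM in WT-labelled to 298 to 341 in KO-labelled libraries, as did Cxcl11 (41.7 to 45.8 and 136 to 149) and Cxcl10 (2600 to 2810 and 3730 to 3850). In set A the ranges of the genotype labels overlapped for all 7, for example 364.6 to 487 and 310 to 399 CPM for Cxcl2. In set B the ranges of Cxcl16 were also separate (624 to 675 CPM, WT label, and 682 to 704 CPM, KO label), although its log2 difference was 0.08 ± 0.20. The share of all genes with separate ranges was not counted in either set, so these ranges only describe the 7. Spread over all genes was also smaller in set B, with a median within-group SD of log2 CPM of 0.13, against 0.225 in set A.

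**Figure D3:**
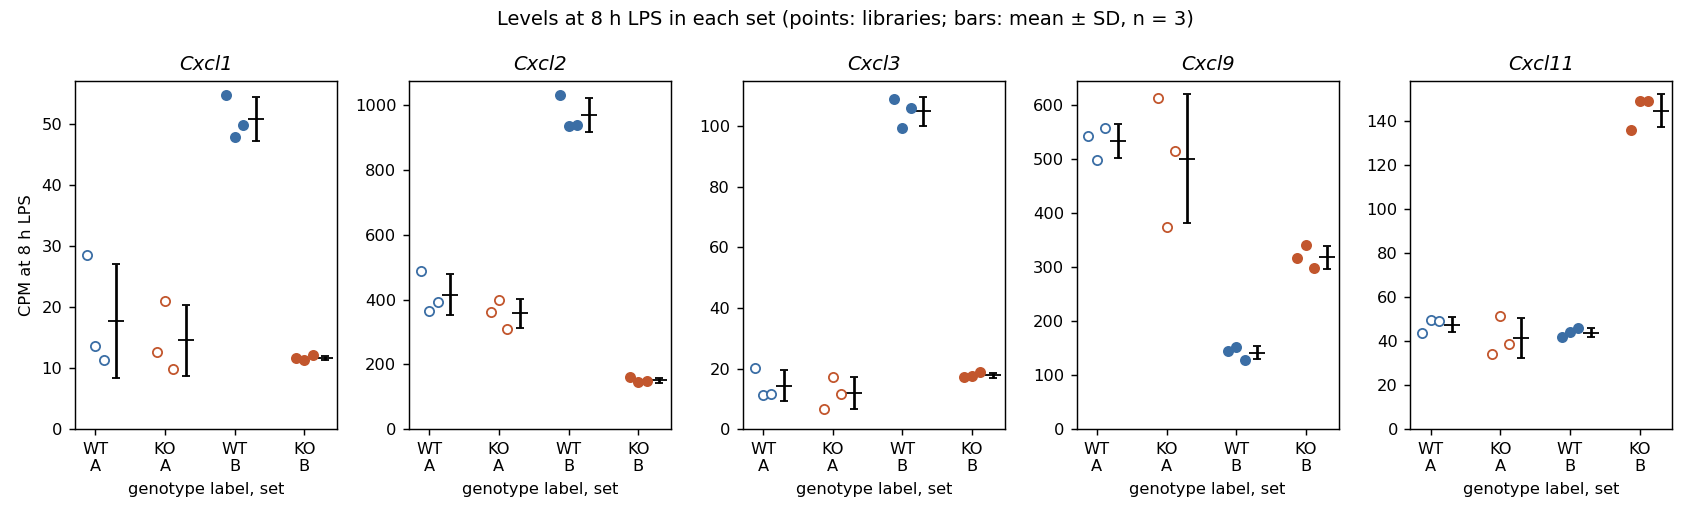
CPM of Cxcl1, Cxcl2, Cxcl3, Cxcl9 and Cxcl11 at 8 h LPS in the 3 WT-labelled and 3 KO-labelled libraries of each set, with the mean ± SD; each axis starts at 0. The genotype labels overlap in set A and separate in set B, with Cxcl1, Cxcl2 and Cxcl3 lower and Cxcl9 and Cxcl11 higher in KO-labelled libraries.

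In the fit with a mean for each group in each set, 6 of 7 were called at 8 h in set B, where 16.9% of all genes were called, and 0 of 7 in set A, where 0.116% were and 0 of the 7 had an unadjusted p under 0.05. In set B Cxcl1 was lower in KO-labelled libraries by -2.12 ± 0.25, Cxcl2 by -2.68 ± 0.15 and Cxcl3 by -2.55 ± 0.23, on the log2 scale. Cxcl9 was higher by 1.17 ± 0.21, Cxcl11 by 1.73 ± 0.19 and Cxcl10 by 0.50 ± 0.18 (adjusted p = 0.0493), and Cxcl16 differed by 0.08 ± 0.20 (adjusted p = 0.839). In set A the 7 differences ran from -0.34 ± 0.26 (Cxcl1) to 0.12 ± 0.18 (Cxcl10). The difference between the sets was called for 5 of 7, beside 5.68% of all genes: Cxcl1 (-1.79 ± 0.36, adjusted p = 0.00235), Cxcl2 (-2.46 ± 0.21, 1.21e-09), Cxcl3 (-2.24 ± 0.34, 7.97e-05), Cxcl9 (1.26 ± 0.29, 0.0083) and Cxcl11 (1.92 ± 0.27, 1.61e-05). For Cxcl10 and Cxcl16 it was 0.39 ± 0.25 and 0.15 ± 0.29, which was not called.

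**Figure D4:**
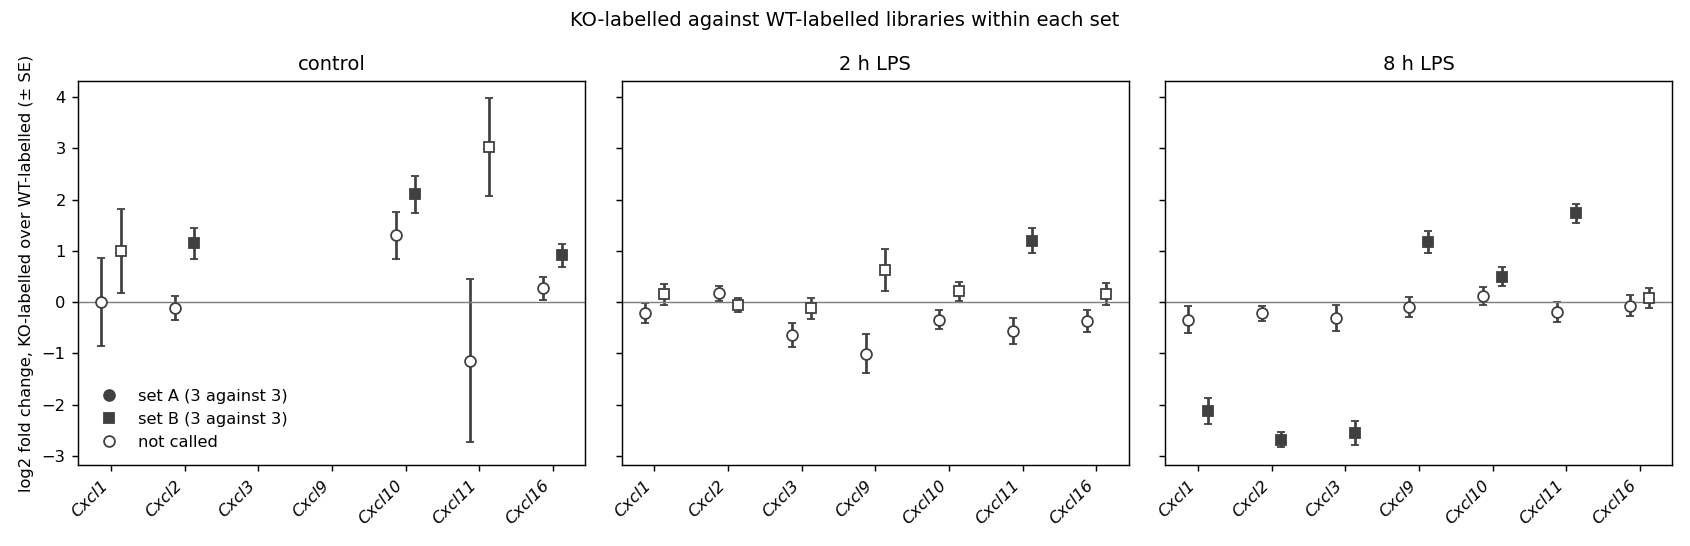
Log2 fold change (± SE) of KO-labelled over WT-labelled libraries within set A (circles) and set B (squares), 3 against 3, in controls, at 2 h and at 8 h LPS; filled points were called at an adjusted p of 0.05, and Cxcl3 and Cxcl9 are not drawn for controls, where counts were near 0. At 8 h the CXCR2 ligands lie between -2.12 and -2.68 in set B, and all 7 lie near 0 in set A.

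The same tests were made in controls and at 2 h. In controls of set B, Cxcl10 (2.10 ± 0.36, adjusted p = 0.000219), Cxcl2 (1.15 ± 0.30, 0.0274) and Cxcl16 (0.91 ± 0.23, 0.0239) were higher in KO-labelled libraries, beside 2.89% of all genes called, and 0 of 7 were called in set A, beside 0.0772% (1 at an unadjusted p under 0.05). Of the 7 differences between the sets in controls, 0 were called and 2 had an unadjusted p under 0.05, beside 1.94% of all genes called. For Cxcl2 that difference was 1.26 ± 0.38 (adjusted p = 0.0959). At 2 h Cxcl11 was higher in KO-labelled libraries of set B (1.20 ± 0.24, adjusted p = 0.0018, beside 2.95% of all genes called) and -0.56 ± 0.26 in set A, which was not called. That difference of 1.76 ± 0.35 was called (adjusted p = 0.00294, beside 2.16% of all genes), and was the sole such call among the 7 at 2 h.

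Other values moved with set and genotype label. The 8 neutrophil markers summed to 196 to 207 CPM in WT-labelled and 114 to 121 in KO-labelled libraries of set B at 8 h, and to 32.6 to 66.3 and 49.2 to 76.3 in set A. Of these markers Ly6g was near 0 in every group, with at most 0.213 CPM in any library. The 7 tested all had higher means in WT-labelled libraries of set B at 8 h, such as S100a9 (98.2 and 54.7 CPM), S100a8 (54.5 and 31.8) and Ngp (30.3 and 18.9). Over all 6 libraries 0 of these 7 were called between the genotype labels at 8 h. In controls of set B the same sums were 155 to 174 (WT label) and 88.9 to 102 CPM (KO label). The 8 stromal markers summed to 59.7 to 205 CPM (median 60.3) in WT-labelled and 33.6 to 37 (median 34.3) in KO-labelled libraries of set B at 8 h. These WT-labelled libraries include replicate 5, which had 3700 CPM of skeletal muscle transcripts. Irf7, which encodes an interferon-induced regulator of interferon genes, had means of 9.59 (WT label) and 239 CPM (KO label) in set B controls and 24.0 and 23.4 CPM in set A controls. The part of these values in the chemokine differences was not tested. The sets also differed in spread, where the median within-group SD of log2 CPM was 0.225 (set A) and 0.13 (set B).

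The test of the difference between the LPS responses of the 2 labels called 0 genes at either time with edgeR's quasi-likelihood test. At an unadjusted p under 0.05 there were 153 genes at 2 h and 540 at 8 h, and the DESeq2 Wald test called 0 and 4. Of the 7, 0 were called by either test at either time, and 2 at 2 h and 3 at 8 h had an unadjusted p under 0.05. Among the 7, the largest such difference against its SE was that of Cxcl10, KO label minus WT label. It was -1.86 ± 0.48 at 2 h and -1.57 ± 0.48 at 8 h (adjusted p = 1 and 0.873). It lay mostly in the controls, where Cxcl10 differed between the labels by 1.82 ± 0.39 (means of 0.856 CPM, WT label, and 2.89 CPM, KO label). Under LPS the levels of Cxcl10 differed by -0.04 ± 0.27 at 2 h and 0.25 ± 0.27 at 8 h. In the fit with sets, 4 of 7 were called at 8 h in set B, beside 5.09% of all genes: Cxcl1 (-3.12 ± 0.85), Cxcl2 (-3.83 ± 0.33), Cxcl3 (-4.11 ± 1.18) and Cxcl10 (-1.60 ± 0.41). At 2 h in set B it was Cxcl10 (-1.89 ± 0.41, adjusted p = 0.0399), beside 0.201%. The level of Cxcl10 in set B at 8 h was higher in KO-labelled libraries (0.50 ± 0.18), while those of Cxcl1, Cxcl2 and Cxcl3 were lower. Set B controls held between 1 and 12 counts a library for Cxcl1 and Cxcl3, so their responses there are imprecise. In set A 0 of 7 were called at 2 h (beside 0.0154%) or 8 h (beside 0%), with 2 and 1 at an unadjusted p under 0.05. The difference between the sets at 8 h was called for Cxcl2 alone, which was at -0.11 ± 0.27 in set A, a difference of -3.71 ± 0.43 (adjusted p = 4.15e-06, beside 1.68% of all genes).

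Genes of the pathways that lead to these chemokines changed with LPS as follows. Of 23 genes of the LPS receptor chain and NF-kB, 19 rose and 1 fell at 2 h in WT-labelled libraries, with a median of 1.47 on the log2 scale, and 19 rose and 2 fell in KO-labelled libraries (median 1.31). For comparison with these lists, 20.3% of all genes rose and 17.6% fell at 2 h in WT-labelled libraries, and 18.9% and 16.4% in KO-labelled ones. At 8 h 34.2% rose and 37% fell (WT label), and 34.9% and 37.1% (KO label). The largest WT-labelled rises were those of the NF-kB inhibitors and co-regulators Nfkbiz (7.36 ± 0.19), Nfkbia (5.26 ± 0.12), Nfkbie (4.93 ± 0.15) and Tnfaip3 (4.60 ± 0.29). Tlr4, the LPS receptor itself, named after its values were seen, fell by 0.79 ± 0.21. At 8 h 19 rose and 3 fell (WT label) and 18 rose and 3 fell (KO label).

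Of 21 genes of the interferon axis, 18 rose and 1 fell at 2 h in WT-labelled libraries (median 1) and 16 rose and 1 fell in KO-labelled ones, beside 20.3% and 18.9% of all genes that rose. Ifnb1, which encodes interferon-beta, rose by 10.01 ± 0.58 and 9.15 ± 0.49 at 2 h, from at most 0.303 CPM in any control to 26.7 to 75.6 CPM (WT label) and 68.3 to 140 CPM (KO label), and lay between 1.23 and 11.5 CPM at 8 h. Irf1, a transcription factor of both pathways, rose by 5.05 ± 0.22 and 4.66 ± 0.22 at 2 h. Irf7 rose by 7.30 ± 0.71 and 4.66 ± 0.62 at 8 h, and Socs1, an inhibitor of this signalling, by 5.74 ± 0.31 and 5.76 ± 0.31. Between the genotype labels, 1 gene of both lists was called at any time, Irf7 in controls (2.97 ± 0.58 higher in KO-labelled libraries, adjusted p = 0.0314).

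Genes of proteins that bind cytokine mRNAs and set their stability, of which 9 were tested, gave 5 higher and 1 lower at 2 h and 5 higher and 3 lower at 8 h under both labels. Most of them destabilise these mRNAs, and Elavl1 (HuR), which stabilises them and is named after its values were seen, was among the genes that rose (0.44 ± 0.09 at 2 h and 0.36 ± 0.09 at 8 h in WT-labelled libraries). Zfp36 (tristetraprolin) rose by 1.96 ± 0.18 at 2 h and 3.82 ± 0.19 at 8 h in WT-labelled libraries, and Zc3h12a (regnase-1) by 4.10 ± 0.14 and 3.82 ± 0.14. Zfp36l1 fell by 3.03 ± 0.41 at 8 h. Of 8 genes of proteases that cut or present CXC ligands, Adam17 and Sppl2a rose at both times under both labels, in WT-labelled libraries by 1.22 ± 0.07 and 2.23 ± 0.08 for Adam17 and by 0.70 ± 0.09 and 2.67 ± 0.09 for Sppl2a. Adam10 was not called at 2 h (-0.06 ± 0.15) and fell by 0.67 ± 0.15 at 8 h.

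Of 8 other CXC ligand genes, 4 passed the filter on low counts (Cxcl12, Cxcl14, Pf4 and Ppbp), and in the 4 comparisons of LPS with control 1 call was made, Cxcl14 at 8 h in WT-labelled libraries (-0.71 ± 0.27, adjusted p = 0.0215). Pf4, a platelet and macrophage CXC chemokine, stayed between 52 and 269 CPM in all groups, with log2 changes from 0.07 to 0.27 that were not called. Cxcl13, a B cell attractant, was listed at 0 in 5 of the 6 groups. Of 8 receptor genes 3 passed. Cxcr4 fell by 1.39 ± 0.35 at 2 h and fell by 4.54 ± 0.44 at 8 h in WT-labelled libraries. In KO-labelled ones it fell by 1.46 ± 0.35 and then fell by 4.65 ± 0.44 against control. Cxcr2, the receptor of Cxcl1 to Cxcl3, had a median of at most 0.81 CPM in any group and fell at 8 h in WT-labelled libraries (-2.74 ± 0.80, adjusted p = 0.0028). Cxcr3 lay between 3.68 and 13 CPM and was not called in any comparison of LPS with control, and Cxcr6, the CXCL16 receptor, stayed under 1 CPM in all libraries.

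As a description of likeness, the log2 CPM of each member was correlated over the 36 libraries with that of 9312 other genes, where most of the variation lies between treatments and libraries share their group. Cxcl1 was most like Tlr2 (Pearson r = 0.982), Cish (0.978) and Hivep3 (0.972), and Cxcl2 most like Nlrp3, Cdc42ep2 and Relb (0.979 each). Cxcl3 was most like Trim36 (0.977), Stim2 (0.975) and Cdc42ep2 (0.974). Cxcl10 was most like Acod1 (0.993), Cflar (0.992) and Icam1 (0.990), and Cxcl9 most like Vps54, Nt5c3 and Zup1 (0.994 each). Cxcl11 was most like Sp140 (0.983), Ppp1r15b (0.983) and Rap1b (0.981), and Cxcl16 most like Mfsd7a (0.993), Ikbke (0.989) and Snx20 (0.988). Among themselves the CXCR2 ligands had r from 0.92 to 0.95, Cxcl11 and Cxcl16 had 0.97, and Cxcl1 and Cxcl9 had 0.46, the lowest of all pairs. Pairs of a CXCR2 and a CXCR3 ligand reached similar values, with 0.94 for Cxcl2 and Cxcl10 and 0.93 for Cxcl3 and Cxcl10. After subtraction of each group mean, r was -0.01 to 0.60 among the CXCR2 ligands and 0.12 for Cxcl11 and Cxcl16.

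The 6 members on chromosome 5 were compared with the 16 other protein-coding genes between the first and the last of them, a list made by position after the data were seen. Of these, 8 passed the filter on low counts. At 2 h 2 of the 8 rose and 1 fell under each label (20.3% and 18.9% of all genes rose), and at 8 h 4 rose and 2 fell (34.2% and 34.9% rose). The largest rise was that of U90926 by 7.95 on the log2 scale at 8 h in WT-labelled libraries, and G3bp2 and Naaa rose by 1.53 and 0.87. Cdkl2 fell by 1.14 at 8 h, Mthfd2l was not called at either time, and 0 of the 8 differed between the genotype labels at 8 h.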

How the data were processed

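RNA of 36 macrophage libraries was sequenced by the authors, who deposited raw counts of reads per gene, 1 file per library and not normalized. The submitters' processing notes name HTSeq and mm10. Which aligner, annotation, HTSeq version or strandedness was used is not given in the sources used here. Of 54232 identifiers, 54165 were found in GENCODE release M21, which gave symbols, positions and exon lengths. No file held rows without a gene (0) or columns of other samples (0), and no 2 files were identical. Groups were taken from the labels.

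Counts were analysed with edgeR 4.0.16 and limma 3.58.1 in R 4.3.3: filterByExpr on the 6 groups (12957 genes kept), TMM scaling, 1 mean per group over all 36 libraries and the robust quasi-likelihood test, with p-values adjusted over all genes tested (Benjamini-Hochberg) and called under 0.05. SE are |log2 fold change| divided by the square root of F. CPM are counts scaled to a common library size. At these totals (8953489 to 18482551) the control counts of Cxcl3, Cxcl9 and Cxcl11 limit precision. The edgeR steps were tested on simulated data. Promoters came from RefSeq (GRCm38.p6), 250 bases before the start. NF-kB, ISRE and GAS patterns were searched on both strands.

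The 7 members, the gene lists and the tests were chosen with earlier results of these data known. Named genes were the members, from each pathway list up to 4 genes called with the largest change plus 13 fixed names (1 of them not reported here), and per member the 3 genes with the highest Pearson r (mean log2 CPM of at least 2, no other members or unnamed models). Alternatives were other scalings and filters, DESeq2 1.42.0, limma-voom, fits on fewer libraries, a term for the library set, either set by itself and each library left out. A fit with 12 means (6 groups in 2 sets) was added after the data were seen.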

Additional observations from a re-analysis of the deposited data

Results flagged for a closer look

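In 42 groups of 6 libraries (7 transcripts in 6 groups), 7 had a highest or lowest library far from the other 5. The measure was the gap to its neighbour, as a share of the range of the group, above Dixon's 95% limit. Independent normal values pass that limit in about 1 group in 20. The values here are untransformed CPM, the groups hold 2 sets and the transcripts share libraries, so that rate is no yardstick for the 7. Replicate 1 of the WT-labelled 2 h group was highest for Cxcl1 (230 CPM, next 166) and for Cxcl16 (290 CPM, next 195). Cxcl1 was at 21 CPM in KO-labelled replicate 2 at 8 h (next 12.7), and Cxcl16 at 147 CPM in KO-labelled replicate 2 at 2 h, the lowest of its group (next 179). In controls, Cxcl16 was at 50.5 CPM in KO-labelled replicate 1 (next 29.9), Cxcl10 at 2.12 CPM in WT-labelled replicate 3 (next 0.904) and Cxcl3 at 0.394 CPM in KO-labelled replicate 5 (next 0.134). Of these 7 libraries by transcript, 5 were in set A.

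For 17 tests of a member the log2 change differed between the 2 sets of libraries (set B minus set A, adjusted p under 0.05). For 8 h against 2 h in WT-labelled libraries the differences were 1.61 for Cxcl1, 1.59 for Cxcl2, 1.44 for Cxcl3 and -1.10 for Cxcl10, and in KO-labelled libraries -0.64 for Cxcl2, -1.32 for Cxcl3 and -1.27 for Cxcl10. For LPS against control they were 1.59 (2 h) and 3.18 (8 h) for Cxcl2 in WT-labelled libraries and -1.94 for Cxcl10 at 8 h in KO-labelled ones. For the KO label against the WT label they were 1.76 for Cxcl11 at 2 h, and at 8 h -1.79 for Cxcl1, -2.46 for Cxcl2, -2.24 for Cxcl3, 1.26 for Cxcl9 and 1.92 for Cxcl11. For the difference between the 8 h responses of the 2 labels it was -3.71 for Cxcl2. What separates the sets is not in the labels and was not tested.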

How the results depend on the processing

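No paired analysis was possible because the labels give no replicate numbers, and those used here follow accession order. In the 28 tests of LPS against control, all 7 transcripts kept their direction and call in 1344 of 1344 alternative fits. For Cxcl1, Cxcl3, Cxcl9 and Cxcl11 the filter on low counts fixed that direction, so fits with such a filter could not reverse it. Of the alternatives for each test, 36 differ from the main fit by 1 library left out. Over all single-gene tests, 3565 of 3692 alternative fits kept both, 36 lost a call, 46 gained one and 45 changed direction, many of them around values near 0. With library totals as the scale the median of all genes moved to -0.32 (WT label, 2 h) and -0.83 (8 h) and the share of calls that were higher from 53.5% to 20.7% and from 48% to 19.9%. For KO against WT label at 8 h the members called were 1, and 2 with library totals or the DESeq2 Wald test, 0 without a count filter, with the compared groups alone or in set A alone, 3 with the set as a term, 6 in set B alone and 0 to 3 with 1 library left out. In controls they were 1, and 0 without a count filter, with limma-voom, with the compared groups alone, without the 6 libraries labelled BMDM, with the set as a term or in set A alone, 4 in set B alone and 0 to 2 with 1 library left out. At 2 h they were 0, and 3 in set B alone; for the difference between responses they were 0, and 2 (2 h) and 5 (8 h) in set B alone. Changes of direction were called for Cxcl2 from 2 h to 8 h in WT-labelled libraries of set A alone (-0.61) and, between labels at 2 h in set B alone, for Cxcl9 (0.64) and Cxcl16 (0.17). The others were not called. In set A alone these were Cxcl3 from 2 h to 8 h in WT-labelled libraries (-0.49), Cxcl1 (0), Cxcl2 (-0.11), Cxcl9 (-1.64) and Cxcl11 (-1.12) between labels in controls, Cxcl11 at 2 h (-0.55), and Cxcl9 (-0.09), Cxcl11 (-0.19) and Cxcl16 (-0.07) at 8 h. There the difference between responses was 0.28 for Cxcl2, 0.64 for Cxcl9 and 0.58 for Cxcl11 at 2 h and 1.55 for Cxcl9 and 0.93 for Cxcl11 at 8 h. In set B alone, values between labels at 2 h were 0.15 for Cxcl1, -0.05 for Cxcl2 and 0.22 for Cxcl10. With library totals Cxcl2 from 2 h to 8 h was -0.14 in WT-labelled libraries and Cxcl16 between labels at 8 h -0.07, and the latter was -0.02 with the compared groups alone and 0 without the muscle marker libraries. Between labels at 2 h, Cxcl10 was 0.02 without the muscle marker libraries, and without the libraries labelled BMDM Cxcl2 was -0.02, Cxcl9 0.09 and Cxcl10 0.05. With 1 library left out, values that crossed 0 ran between labels at 2 h from -0.07 to 0.09 (Cxcl1), -0.02 to 0.16 (Cxcl2), -0.48 to 0.04 (Cxcl9), -0.11 to 0.06 (Cxcl10) and -0.17 to 0.03 (Cxcl16), at 8 h from -0.03 to 0.05 (Cxcl16), in controls from -0.03 to 0.49 (Cxcl2), and for the 2 h difference between responses from -0.41 to 0.10 (Cxcl2). The cause was not tested. Cxcl3 from 2 h to 8 h in KO-labelled libraries was called in 7 of 36 fits with 1 library left out (adjusted p 0.0302 to 0.144). At 8 h between labels, Cxcl2 was called in 6 of 36 such fits (0.0181 to 0.189) and Cxcl3 in 3 (0.0187 to 0.276). Without WT-labelled control replicate 1, Cxcl16 was called in controls (0.80, adjusted p = 0.0165).

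Over all genes, the calls at 2 h rose from 4910 to 7608 (WT label) and from 4564 to 7266 (KO label) with library totals. Between labels in controls they were 16, and 3 without a filter or with limma-voom, 86 with DESeq2, 1 with the compared groups alone, 7 in set A, 1407 in set B and 3 to 73 with 1 library left out. At 2 h they were 3, and 5 with DESeq2, 9 with the set as a term or in set A and 1398 in set B. At 8 h they were 13, and 41 with library totals, 6 without a filter, 96 with DESeq2, 22 with limma-voom, 0 with the compared groups alone, 20 without the libraries labelled BMDM, 140 with the set as a term, 7 in set A, 4075 in set B and 2 to 121 with 1 library left out. For the difference between responses they were 0, and 147 at 2 h in set B, and at 8 h 4 with DESeq2, 1 with the set as a term and 2162 in set B.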
